A study of Mus musculus with 7 samples.

Results

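The genes described here encode the partners of the mTOR kinase and the regulators that act on it from above, measured in hematopoietic stem cells (HSCs) of mice with and without the aryl hydrocarbon receptor (AhR) gene Ahr. The 9 genes were Rptor, Rictor, Mlst8, Tsc1, Tsc2, Rheb, Akt1, Rps6kb1 and Ddit4. A gene was taken where the platform annotation named it alone on a probe set, and every such probe set was used. This gave 8 probe sets, 1 for each of 8 genes, out of 25335 probe sets that the annotation lists and 41155 in the table. No listed probe set named Rps6kb1, which encodes the p70 S6 kinase, alone or with other genes, so it has no value here. The first group was 3 arrays from Ahr knockout mice (Ahr-KO) and the second 4 arrays from mice with wild-type Ahr (WT), all on a C57BL/6J background and killed at 8 weeks. Bone marrow had been depleted of lineage-positive cells and the HSCs selected by SLAM markers before RNA was amplified for hybridisation to single-channel Affymetrix arrays. The labels give neither the Ahr allele, the sex, nor whether an array held 1 mouse or a pool, so p-values measure the spread between arrays, which may be technical.

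mTOR is a serine/threonine kinase that works in separate complexes. In mTOR complex 1 it binds raptor (Rptor), which brings substrates such as S6 kinase and the 4E-binding proteins, and in mTOR complex 2 it binds rictor (Rictor), which directs it to Akt; the WD-repeat protein encoded by Mlst8 sits in both. Complex 1 is switched on at the lysosome by the small GTPase Rheb, and the tuberous sclerosis proteins encoded by Tsc1 and Tsc2 hold Rheb in its inactive state. Akt1 encodes a kinase that relieves this brake by phosphorylating the Tsc2 protein, while Ddit4 encodes the stress-induced protein REDD1, which reinforces it. In mice, loss of Tsc1 drives quiescent HSCs into cycle and depletes them over time.

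The median intensity was 16.9 to 20.3 on Ahr-KO arrays, against 16.95 to 22.1 for WT. Detection calls were not used; a background mark was set per array at the value that 95% of the 1108 probe sets for olfactory receptors did not exceed, which was 33.8 to 37.6 on Ahr-KO arrays and 33.9 to 42.8 on WT arrays. The probe set of Ahr was not lower on the knockout arrays, at 34.1, 137 and 26.4 against 31.3, 57.9, 14.9 and 20.5 on WT arrays. Which part of the gene was deleted is not stated, so this value does not check the genotype, and Ahr-KO names the label. Of 10 HSC markers, 9 were measured, and the stem cell receptor gene Kit, the transcription factor gene Hlf and Cd34 exceeded the mark on all 7 arrays. Slamf1, whose product CD150 defines the sort, exceeded it on all 3 Ahr-KO arrays and on 1 WT array. Cd48, whose product such a sort selects against, exceeded it on 5 arrays.

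None of the 8 member probe sets differed between the genotypes at an adjusted p under 0.05 in limma's moderated linear model, adjusted by Benjamini-Hochberg over all listed probe sets. The same held for all 25335 listed probe sets (0.0% called), and an unmoderated linear model also called 0. At an unadjusted p under 0.05 there were 0 members, while limma called 1067 of all probe sets (4.21%) and the unmoderated model 1094. The Ahr-KO and WT values overlapped for all 8 members; over all listed probe sets the groups did not overlap for 5.74%. The mean log2 value was lower in Ahr-KO for 7 of 8 members, where 51.7% of all listed probe sets were lower in Ahr-KO. The median log2 difference, Ahr-KO minus WT, was -0.62 over the members and -0.03 over all listed probe sets. In bulk RNA, a smaller number of cells of a type and less RNA per cell cannot be told apart.

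**Figure D1:**
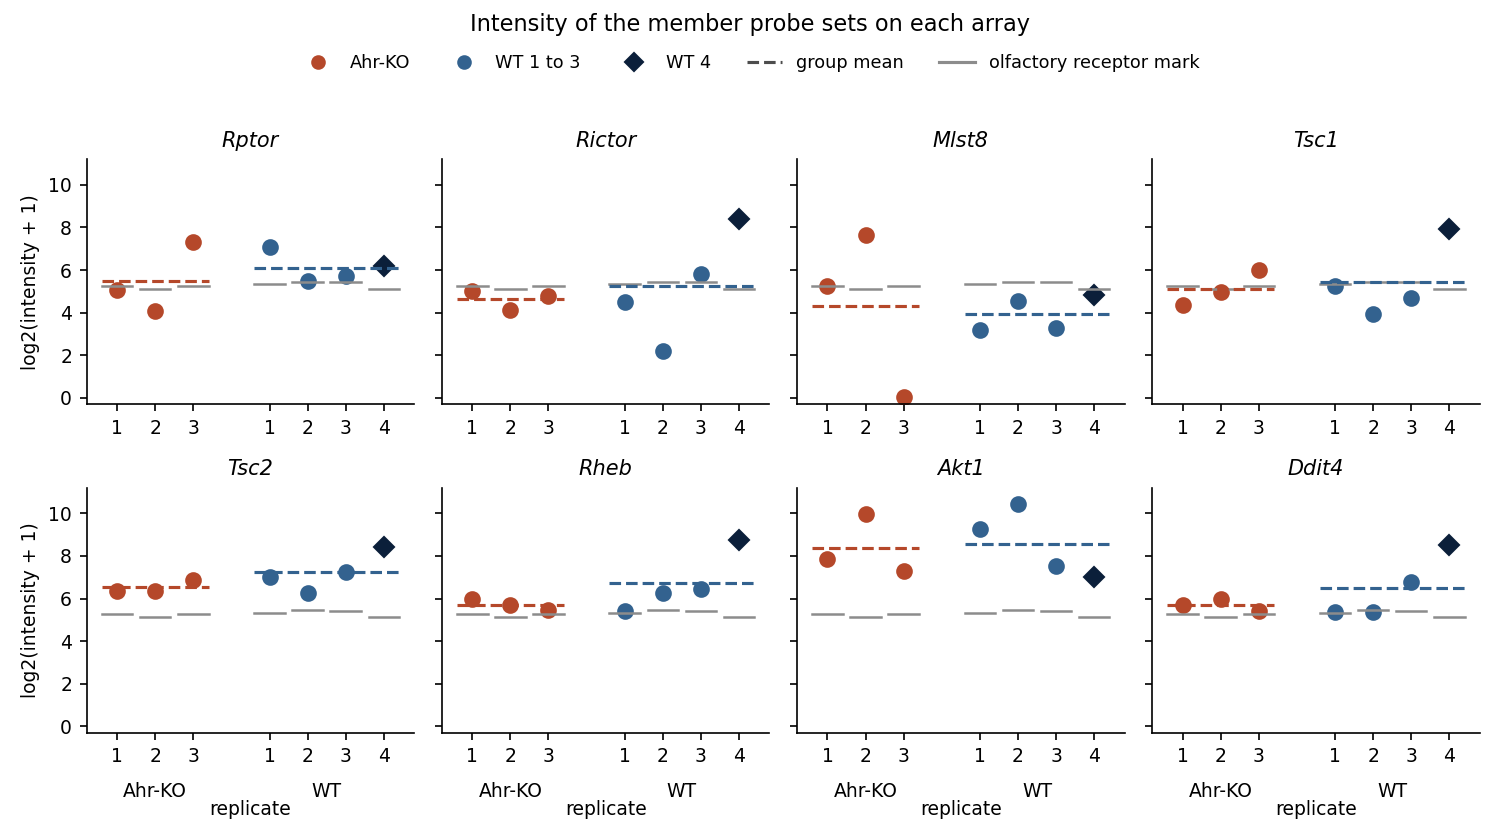
Log2(intensity + 1) of the 8 member probe sets (y axis) on each array, Ahr-KO left and WT right (x axis, replicate numbers). Points are arrays, dashed lines group means, and grey dashes the olfactory receptor mark of that array; the diamond, WT replicate 4, is the highest of the 7 arrays for Rictor, Tsc1, Tsc2, Rheb and Ddit4.

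Among the complex partners, Rptor (probe set 17259177) had intensities of 32.4, 15.9 and 159 for Ahr-KO, against 133, 43.9, 51.5 and 72.5 in WT HSCs. The Ahr-KO values thus spanned the whole WT range, with Ahr-KO replicate 3 the highest of all arrays and Ahr-KO replicate 2 the lowest. Rptor exceeded the background mark on 1 Ahr-KO array and on all 4 WT arrays. Its log2 values had a mean of 5.49 ± 1.66 over the Ahr-KO arrays (SD, n = 3), against 6.12 ± 0.70 over those of WT mice (SD, n = 4), a difference of -0.63 ± 0.82 (SE) with a 95% interval of -2.52 to 1.26. The limma adjusted p was 0.965, and the exact two-sided permutation p of the means was 0.486, where the smallest p that the 35 splits allow is 0.0286. Without Ahr-KO replicate 3 the Rptor difference was -1.55 (limma adjusted p = 0.974), and without Ahr-KO replicate 2 it was 0.07.

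Mlst8 (probe set 17341872), whose protein both complexes share, had the widest spread of the members in Ahr-KO on the log2 scale, where 1 array was near 0; on the intensity scale Akt1 had a wider one. Its intensities were 37.2, 197 and 0.03 for Ahr-KO, against 8.03, 22.4, 8.83 and 27.1 in WT HSCs. The knockout arrays thus held both the highest and the lowest value, and no WT array exceeded the mark. The log2 difference was 0.35 ± 1.59 (SE), with a 95% interval of -3.34 to 4.04 and a limma adjusted p of 0.991 (exact permutation p = 0.857). Leaving out Ahr-KO replicate 3, the array at 0.03, gave 2.48 with an unadjusted p of 0.0255 and a limma adjusted p of 0.974. It was the 1 member under 0.05 unadjusted in that fit, as were 4.2% of all listed probe sets. Leaving out Ahr-KO replicate 2 gave -1.31.

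Rictor (probe set 17310004), the defining partner of complex 2, stood at 31.1, 16.6 and 26.6 for Ahr-KO, against 21.99, 3.65, 56.2 and 338 in WT HSCs. All 3 Ahr-KO arrays lay below the mark, and the WT group was spread on both sides of them. WT replicate 4 was at least 7.34 times the mean of the other WT arrays, with the 2 of them below their mark set to that mark. The log2 difference was -0.60 ± 1.29 (SE), with a 95% interval of -3.59 to 2.38 and a limma adjusted p of 0.976 (exact permutation p = 0.686). Without WT replicate 4 the Rictor difference was 0.45, on the other side of 0.

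Tsc1 and Tsc2 encode the scaffold and the GTPase-activating subunit of the brake on Rheb. Tsc1 (probe set 17368714) had intensities of 19.8, 29.9 and 63.5 for Ahr-KO, against 37.1, 14.1, 24.9 and 241.5 in WT HSCs, above the mark on 1 array of each genotype. The other 2 Ahr-KO and 3 WT arrays were below it and intermingled. The Tsc1 log2 difference was -0.33 ± 0.96 (SE), with a 95% interval of -2.56 to 1.89 and a limma adjusted p of 0.983 (exact permutation p = 0.857), and it was 0.49 without WT replicate 4.

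Tsc2 (probe set 17341917) exceeded the mark on all 7 arrays. It stood at 81.0, 80.9 and 116 for Ahr-KO, against 129, 74.8, 149 and 344 in WT HSCs. The Ahr-KO values were close together and all lay above WT replicate 2 and below the other WT arrays. Log2 values had a mean of 6.53 ± 0.30 over the Ahr-KO arrays (SD, n = 3), against 7.23 ± 0.90 over those of WT mice (SD, n = 4). The difference of -0.70 ± 0.59 (SE) had a 95% interval of -2.07 to 0.66 and a limma adjusted p of 0.963 (exact permutation p = 0.257). It was -0.30 without WT replicate 4, with an interval of -1.55 to 0.94.

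Rheb (probe set 17446307), the GTPase that activates complex 1, gave the largest log2 difference in size among the 8 members with all arrays, but not without WT replicate 4. Its intensities were 61.2, 51.5 and 43.1 for Ahr-KO, against 41.2, 76.4, 84.9 and 429 in WT HSCs, above the mark on all 7. WT replicates 2, 3 and 4 lay above every Ahr-KO array and WT replicate 1 below them all. Log2 values had a mean of 5.71 ± 0.25 over the Ahr-KO arrays (SD, n = 3), against 6.71 ± 1.43 over those of WT mice (SD, n = 4). The difference of -0.9997 ± 0.79 (SE) had a 95% interval of -2.82 to 0.82 and a limma adjusted p of 0.963 (exact permutation p = 0.343). Without WT replicate 4, which was 6.36 times the mean of the other WT arrays, the Rheb difference was -0.32.

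Ddit4 (probe set 17241032), the stress-induced inhibitor, stood at 51.7, 62.8 and 41.2 for Ahr-KO, against 40.0, 40.4, 109 and 363 in WT HSCs. The Ahr-KO arrays lay between the lower and the upper pair of WT arrays, and every array except WT replicate 2 exceeded the mark. Log2 values had a mean of 5.70 ± 0.30 over the Ahr-KO arrays (SD, n = 3), against 6.51 ± 1.49 over those of WT mice (SD, n = 4). The difference of -0.80 ± 0.81 (SE) had a 95% interval of -2.68 to 1.08 and a limma adjusted p of 0.963 (exact permutation p = 0.543), and it was -0.13 without WT replicate 4.

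Akt1 (probe set 17284201), the kinase upstream of the brake, varied several-fold within each genotype. It stood at 232, 1009 and 157 for Ahr-KO, against 612, 1402, 181 and 127 in WT HSCs, above the mark on all 7 arrays. Ahr-KO replicate 2 and WT replicates 1 and 2 were high, and the other 4 arrays low. The log2 difference was -0.17 ± 1.01 (SE), with a 95% interval of -2.50 to 2.15 and a limma adjusted p of 0.993 (exact permutation p = 0.886). Its sign changed when any of 4 single arrays was left out, and the range over all 7 was -0.97 to 0.46. The 14 granulocyte and monocyte markers, all measured, summed to 6710 to 18851 in Ahr-KO and 2253 to 19658 in WT, and the highest sums were on WT replicate 2 and Ahr-KO replicate 2, the arrays with the highest Akt1. WT replicate 1, the third array high in Akt1, had the lowest sum. Of these markers Ly6g exceeded the background mark on no array. WT replicate 2 and Ahr-KO replicate 2 also had the highest sums of the 6 mast cell and basophil markers, 4210 and 2616. The same held for the sum of the 4 measured erythroid markers, at 540 and 949, of which Car1 alone gave 483 and 593. Klf1 and Epor were highest on Ahr-KO replicate 2 but lowest of all arrays on WT replicate 2. Tfrc was lowest on Ahr-KO replicate 2. For the HSC, B lymphoid, T and NK, macrophage and dendritic, and endothelial and stromal markers, the highest sums were not on this pair of arrays. The part of any of these cell types in the Akt1 values was not tested.

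**Figure D2:**
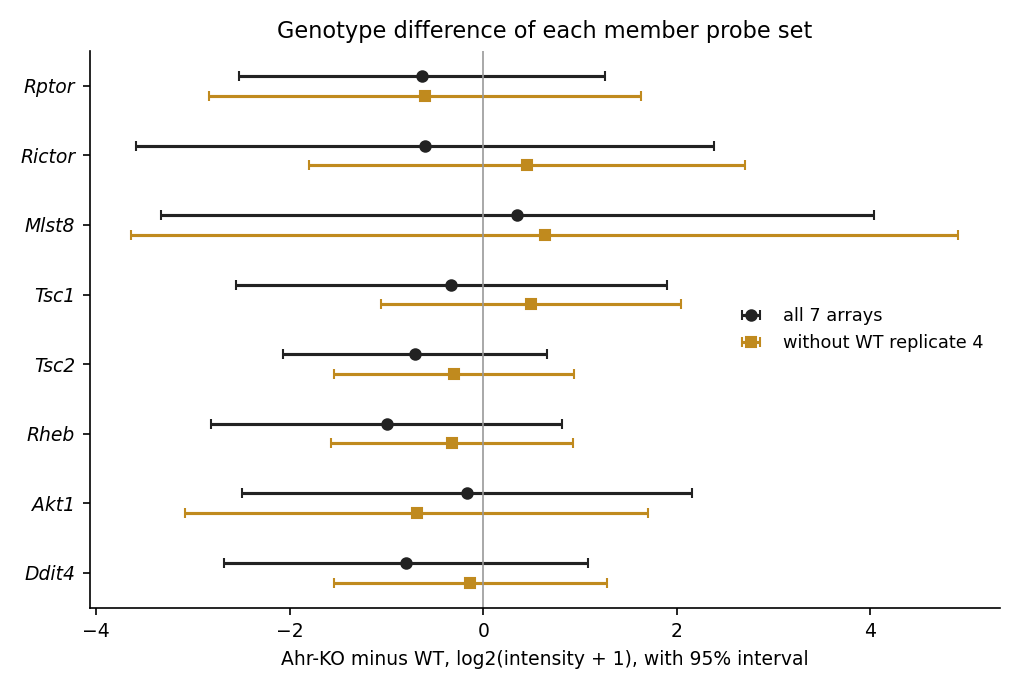
Log2 difference, Ahr-KO minus WT, of each member probe set (x axis) with its 95% interval from limma, for all 7 arrays (circles) and without WT replicate 4 (squares). Every interval spans 0; the Rheb difference is -0.9997 with all arrays and -0.32 without WT replicate 4.

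After these values were seen, the arrays were set beside each other. WT replicate 4 was the highest of the 7 arrays for 5 of the 8 members, namely Rictor, Tsc1, Tsc2, Rheb and Ddit4. Over all listed probe sets the share highest on that array was 13.9%, and over the 3643 probe sets above the mark on every array it was 13.3%. Relative to the mean of the other WT arrays, the log2 value on WT replicate 4 was 2.72 higher for Rheb and 1.60 higher for Tsc2. With WT values below their mark set to that mark, a bound added after the values were seen, it was at least 2.87 higher for Rictor, 2.52 for Tsc1 and 2.64 for Ddit4. It was 0.11 higher for Rptor, Akt1 went the other way at -2.07, and all 4 WT values of Mlst8 lay below the mark. On the values as deposited, the median over the 8 members was 2.14, against 0.17 over all listed probe sets. Of the listed probe sets, 57.1% were higher on WT replicate 4. With values set to the mark, the member median was 2.06. The median over all listed probe sets was then -0.28, the value of Mlst8, whose 4 WT values were all set to the mark. That value reflects the marks alone and is no background for the members. Relative to the other arrays of its genotype, the median member was -0.12, -0.12 and -0.08 on Ahr-KO replicates 1, 2 and 3. On WT replicates 1, 2 and 3 it was -0.62, -1.08 and -0.46. The mean these were set against includes WT replicate 4, whose high values lower them. Without WT replicate 4, 5 of 8 members were lower in Ahr-KO, where 49.6% of all listed probe sets were, and the median member difference was -0.22. No test was made of this pattern.

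WT replicate 4 also had the largest share of listed probe sets above the mark, 44.9%, against 34.9 to 41.9% on the Ahr-KO arrays and 30.7 to 36.4% on the other WT arrays. The macrophage and dendritic markers, 7 of 8 measured, summed to 119 to 848 in Ahr-KO and to 639.7 to 1354 in WT, with the highest sum on WT replicate 4; the macrophage marker gene Adgre1 and the dendritic marker gene Itgax exceeded the mark on no array. The 7 endothelial and stromal markers, all measured, summed to 492 to 1518 in Ahr-KO and 234 to 1715 in WT, again highest on WT replicate 4. The niche chemokine gene Cxcl12 alone reached 1042 there; in a comparison added after the values were seen, the sum without it was 479 to 915 in Ahr-KO and 149 to 739 in WT, with 673 on WT replicate 4. That array was the highest for 2 of these 7 markers and for 4 of the 7 macrophage and dendritic markers. These counts include Adgre1 and Lepr, a marker of marrow stroma, neither of which exceeded the mark on any array. Of the 9 measured HSC markers, Kit, Hlf and Flt3 were also highest on WT replicate 4, at 1258, 900 and 144. The other HSC markers were highest on other arrays. The sum of the HSC markers was 3546 on WT replicate 4, below the highest, 3824 on WT replicate 3. Cd48, which such a sort selects against, made up 679 of the sum on WT replicate 3 and 12.2 on WT replicate 4. The order of these arrays thus rests on Cd48. The part of any of these cell types in the member values was not tested. With each array centred on its median, the members' median log2 difference was -0.56, against -0.62 as deposited, and after quantile normalization it was also -0.62.

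**Figure D3:**
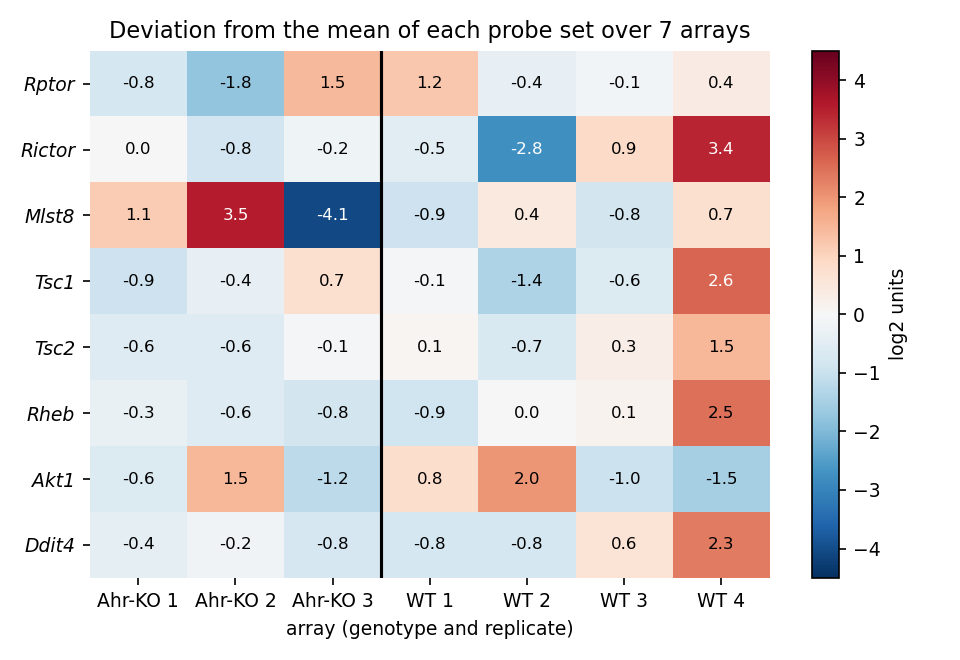
Deviation of each array (x axis) from the mean of the probe set over all 7 arrays, in log2(intensity + 1) units, for the 8 members (rows), Ahr-KO left of the line and WT right. The WT replicate 4 column is positive for every member except Akt1, and Mlst8 shows both its highest and its lowest value in Ahr-KO.

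Promoter windows are shown for Tsc2, Rheb and Ddit4, the members that were high together on WT replicate 4 and exceeded the mark on at least 6 arrays. Each runs from 250 bases before to 50 bases after the RefSeq start of the gene in GRCm38.p6 and is printed 5′ to 3′ on the strand of the gene. Capitals mark GCGTG or its reverse complement CACGC, the core letters of the element that AhR with its partner Arnt is known to bind; this was the only motif searched, on both strands.
Tsc2, chr17:24632578-24632877, minus strand: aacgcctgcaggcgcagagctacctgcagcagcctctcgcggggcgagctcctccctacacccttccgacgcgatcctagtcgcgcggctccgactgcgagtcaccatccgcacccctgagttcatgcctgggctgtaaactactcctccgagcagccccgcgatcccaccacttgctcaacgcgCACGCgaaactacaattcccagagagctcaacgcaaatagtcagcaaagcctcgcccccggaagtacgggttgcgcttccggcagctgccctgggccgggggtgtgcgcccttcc
Rheb, chr5:24842312-24842611, minus strand: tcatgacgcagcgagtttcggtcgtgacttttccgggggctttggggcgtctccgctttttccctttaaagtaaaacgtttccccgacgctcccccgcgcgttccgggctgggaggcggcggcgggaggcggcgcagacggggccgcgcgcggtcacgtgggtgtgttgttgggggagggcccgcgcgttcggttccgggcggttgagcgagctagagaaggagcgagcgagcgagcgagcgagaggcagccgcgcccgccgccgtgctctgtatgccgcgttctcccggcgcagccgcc
Ddit4, chr10:59951721-59952020, minus strand: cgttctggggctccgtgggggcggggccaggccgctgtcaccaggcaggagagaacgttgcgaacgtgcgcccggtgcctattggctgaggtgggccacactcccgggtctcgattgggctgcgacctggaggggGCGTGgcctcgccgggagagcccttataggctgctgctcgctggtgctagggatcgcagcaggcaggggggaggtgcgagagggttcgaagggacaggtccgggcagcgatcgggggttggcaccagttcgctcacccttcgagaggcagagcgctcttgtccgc
The Tsc2 window held the letters once, beginning 65 bases before the start, the Ddit4 window once, 115 bases before it, and the Rheb window did not hold them. All 9 member genes matched the promoter table, with 10 windows since Akt1 has 2. The letters occurred in 8 of these 10 windows, those of Rptor, Rictor, Tsc1, Tsc2, Akt1, Rps6kb1 and Ddit4, and in 32.4% of all 32851 windows. Median GC content was 61.3% in the member windows and 52.7% in all windows, and a GC-rich motif is found more often in GC-rich sequence. A match is a description of the letters and not evidence of binding, and the windows of Mlst8 and Rheb say no more than that these letters are missing from this stretch.

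Among themselves, the members did not vary as 1 group over the 7 arrays. Pearson correlations of log2 values, given as a description, ran from -0.89 to 0.93 over the 28 pairs, with a median of 0.22; 16 pairs were positive. The median over all pairs of probe sets above the mark on every array was 0.01. All 10 pairs among Rictor, Tsc1, Tsc2, Rheb and Ddit4 were positive, at 0.69 to 0.93, and these 5 genes were put together because of their values on WT replicate 4. Without that array 6 of the 10 pairs were positive, with a median of 0.43. The highest pair was Rheb with Ddit4 (Pearson r = 0.93, Spearman rho = 0.75, n = 7), which was 0.60 without WT replicate 4 and 0.52 without the 2 arrays farthest from the Rheb median.

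Some pairs ran in opposite directions. Rptor and Mlst8 had the lowest pair value (r = -0.89, rho = -0.89, n = 7), and -0.66 without the 2 arrays farthest from the Rptor median. Rictor and Akt1, the complex 2 partner and a substrate of that complex, had r = -0.81 and rho = -0.89 (n = 7), -0.83 without WT replicate 4 and -0.77 without the 2 arrays farthest from the Rictor median. Tsc1 and Tsc2, which form 1 complex, had r = 0.88 and rho = 0.68 (n = 7), and 0.53 without WT replicate 4. Points share the array and its processing. Rictor, Mlst8 and Tsc1 each exceeded the mark on only 2 of the 7 arrays, so most of their values in these pairs lie below it.

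For the 3 members above the mark on all arrays, the most similar profiles were sought among 2964 probe sets of other named genes above the mark everywhere. With 7 arrays and so many candidates, high values are expected for any gene. Sos2, Coro1a and Gpr146 were most like Rheb, with Pearson r of 0.99, 0.97 and 0.96 (Spearman rho 0.89, 0.89 and 0.75). For Tsc2 these were Armcx6, Sgf29 and Trav7-4, at 0.94, 0.93 and 0.92 (rho 0.79, 0.79 and 0.86). For Akt1 they were Capza1, Nab1 and Ckb, at 0.97, 0.97 and 0.95 (rho 0.86, 0.93 and 0.96). Rheb and Tsc2 were highest on WT replicate 4, and these values were not computed without that array.

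Beside the members, 67 other genes of the pathway were analysed by role, with 1 probe set each. Of these genes, 34 had higher and 33 lower values in Ahr-KO, with a median log2 difference of 0.05, and limma called 0 at an adjusted p under 0.05. At an unadjusted p under 0.05 there were 4, of which 1 was higher and 3 were lower in Ahr-KO, against 4.21% of all listed probe sets. WT replicate 4 was the highest array for 13 of the 67.

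The 1 gene with higher values was Mtor, the kinase itself. It stood at 126, 94.5 and 158 for Ahr-KO, against 46.7, 34.1, 22.9 and 27.8 in WT HSCs, and the genotypes differed by 1.93 ± 0.46 on the log2 scale (SE; limma adjusted p = 0.963). Mtor exceeded the mark on 1 of the 4 WT arrays, and its difference was 1.54 with a pseudocount of 16. None of its measured partners Rptor, Rictor and Mlst8 separated the genotypes in this way. Of 7 further subunits and assembly factors of the complexes, 6 were higher in Ahr-KO, with a median of 0.23. Mapkap1, which encodes the SIN1 subunit of complex 2, stood at 343, 169 and 264 for Ahr-KO, against 156, 3.79, 11.7 and 133 in WT HSCs. Its groups did not overlap, but only by 156 on WT replicate 1 against 169 on Ahr-KO replicate 2, and it exceeded the mark on 2 WT arrays. The Mapkap1 difference was 2.89 ± 1.26 (SE, limma adjusted p = 0.963). It was 1.95 without WT replicate 2, 3.63 without WT replicate 1 and 2.11 with a pseudocount of 16. Deptor, which encodes an mTOR inhibitor, was at 5445 on Ahr-KO replicate 1, 155 and 199 on the other Ahr-KO arrays and 165 to 199 on the WT arrays, so its difference of 1.64 became -0.01 without that array and 2.55 without Ahr-KO replicate 3.

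Of the 3 genes with lower values at an unadjusted limma p under 0.05, Nprl2 and Tbc1d7 lie upstream of complex 1 and Ulk1 downstream. Nprl2, which encodes a subunit of the GATOR1 complex that restrains complex 1 when amino acids are scarce, stood at 16.8, 24.4 and 7.31 for Ahr-KO, against 68.4, 82.6, 83.7 and 116 in WT HSCs. Every WT array was above the mark and every Ahr-KO array below it, and Nprl2 differed by -2.49 ± 0.52 (SE; limma adjusted p = 0.961). With a pseudocount of 16 in place of 1, the Nprl2 difference was -1.71. Ulk1, the autophagy kinase that complex 1 inhibits, stood at 32.2, 65.9 and 18.3 for Ahr-KO, against 428, 73.0, 123 and 91.5 in WT HSCs, a difference of -1.98 ± 0.75 (SE; limma adjusted p = 0.963). Tbc1d7, which encodes a subunit of the same complex as Tsc1 and Tsc2, differed by -2.51 ± 0.90 (SE; limma adjusted p = 0.963), but exceeded the mark on WT replicate 2 only, and the difference was -1.38 with a pseudocount of 16.

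By role, the 13 Rag GTPase and Ragulator genes split 7 to 6 between higher and lower values, at a median of 0.05. Lamtor1 and Lamtor4, subunits of the scaffold that holds complex 1 at the lysosome, differed by 1.54 ± 0.68 and 1.07 ± 0.59 (SE), by 0.85 for Lamtor1 without Ahr-KO replicate 1 and by 0.68 for Lamtor4 without WT replicate 2. The 13 genes of the GATOR complexes and amino acid sensors divided into 7 higher and 6 lower, with Sesn3, a sestrin, at 2.16 ± 1.12 (SE). The 12 measured genes of the PI3K arm divided into 7 higher and 5 lower, with Pik3r1, the p85 regulatory subunit gene, at -1.19 ± 0.64 (SE), or -0.79 without WT replicate 1. The adaptor gene Grb10, listed at 0 on 2 Ahr-KO arrays, differed by -2.60 ± 1.86 (SE), by -4.43 without Ahr-KO replicate 2, by -1.69 without Ahr-KO replicate 1 and by -1.01 with a pseudocount of 16. In the AMPK and LKB1 arm, which activates the brake when energy is low, 5 of 7 were lower, including both catalytic subunit genes. Over all listed probe sets, 51.7% were lower in Ahr-KO. Prkaa1 exceeded the mark on 1 Ahr-KO and 2 WT arrays, and Prkaa2 on 2 WT arrays only. Prkaa1 differed by -1.86 ± 1.02 (SE), by -2.88 without Ahr-KO replicate 2, by -1.22 without Ahr-KO replicate 1 and by -1.13 with a pseudocount of 16. Prkaa2 differed by -1.90 ± 1.36 (SE), by -0.76 without WT replicate 2 and by -1.24 with a pseudocount of 16. Among 11 measured outputs 7 were lower, with Tfe3, a transcription factor gene of the lysosomal programme, at 1.25 ± 0.54 (SE). Rhebl1, a relative of Rheb, differed by -1.29 ± 1.26 (SE), -0.57 without WT replicate 4 and -2.17 without WT replicate 2. Each limma adjusted p in this paragraph was 0.963.

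**Figure D4:**
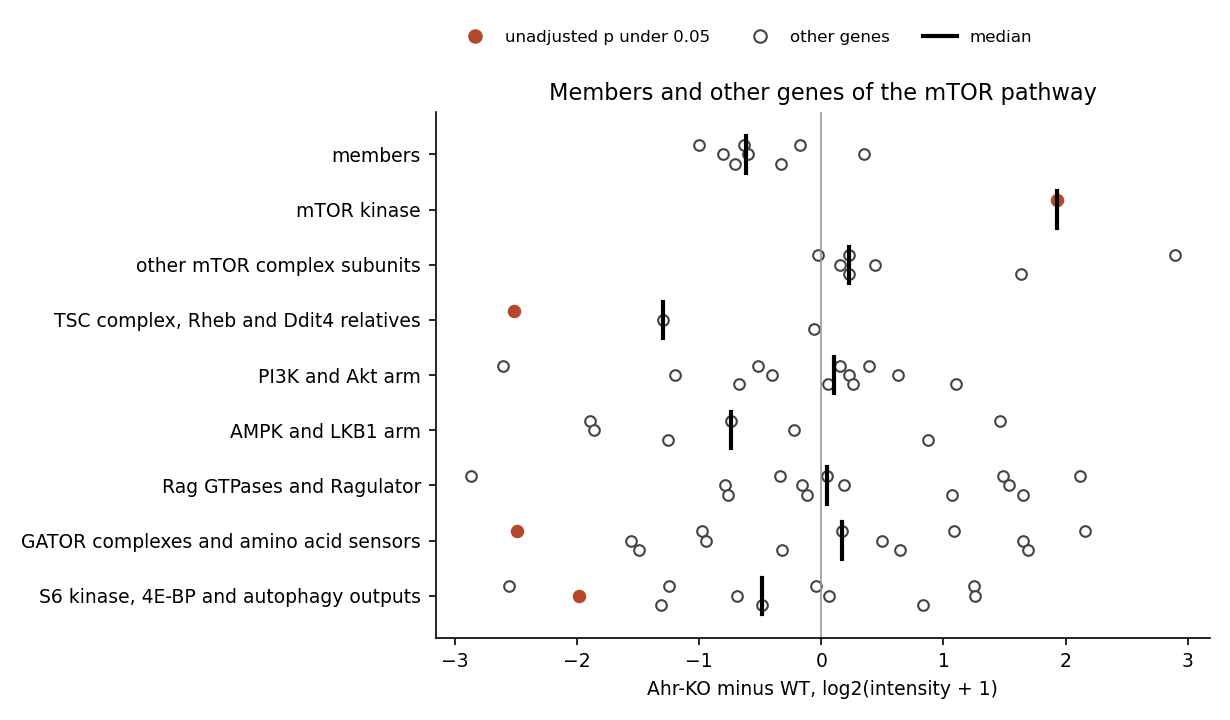
Log2 difference, Ahr-KO minus WT (x axis), for the members and for 67 other genes of the mTOR pathway by role (rows), 1 probe set per gene. Filled points have an unadjusted limma p under 0.05, of which there are 4 (Mtor, Tbc1d7, Nprl2 and Ulk1), open points are the other genes, and bars are medians; the members' median is -0.62.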

How the data were processed

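The values deposited by the authors are intensities on a linear scale, 1 for each probe set on each array. Per the submitters' processing notes the software was Affymetrix Expression Console; its summarization, background correction, normalization and genome build are not stated there. All 7 columns were mapped to samples by accession. Gene names came from the platform annotation, updated by Entrez ID through the GRCm38.p6 RefSeq gene table (23328 of 23521 probe sets with 1 symbol matched). Promoter windows are RefSeq's in GRCm38.p6.

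Intensities were transformed as log2(intensity + 1), which understates fold changes of dim genes, and tested in R 4.3.3 by the lmFit and eBayes functions of limma 3.58.1, over 7 arrays and 25335 listed probe sets, with genotype as the only term. Tests were two-sided, with Benjamini-Hochberg adjustment over all listed probe sets and a threshold of 0.05. Standard errors are moderated. The procedure was tested on simulated data with 200 changed probe sets. It recovered 0% of changes of log2 size 1 or 2, 53.5% of size 4 and 70.5% of size 6. Every member's difference was smaller than the sizes recovered, so the absence of calls does not show that members were alike. The number of arrays and values near background limit the precision.

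The members, lists and background mark were chosen with earlier results of these data known. For other pathway genes, the probe set with the highest mean log2 value was used, and up to 2 genes per role with the smallest unadjusted p were named, besides Mtor. Up to 3 similar profiles were named per member above the mark on all arrays. Alternatives were other sets of rows, normalizations, pseudocounts, variance priors, array weights, the replicate number as a block, and leaving out each array. No result was adjusted over a gene list.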

Additional observations from a re-analysis of the deposited data

Results flagged for a closer look

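In the 4 WT arrays, the highest intensity stood far from the other arrays for some probe sets, by a gap that took up most of the group's whole range (Dixon's criterion at 95%). For Rictor WT replicate 4 was at 337.6 (gap 0.843 of the range), for Tsc1 at 241.5 (0.899) and for Rheb at 429.2 (0.887). None of these 3 was so far out on the log2 scale. Among the pathway genes, Tbc1d7 was at 183.5 on WT replicate 2 (0.959), and at 7.53 on the log2 scale (0.879). Prkaa2 was at 257.3 on WT replicate 2 (0.831) and Ulk1 at 427.6 on WT replicate 1 (0.859). These 7 values came from 23 probe sets, each examined on both scales. For normally distributed values chance alone gives about 1 in 20 groups, but linear intensities need not be so distributed. The pathway genes had also been picked by their p. The 7 values can therefore not be set against that rate, and on the log2 scale only the Tbc1d7 value was flagged. The 3 Ahr-KO arrays were too few for this comparison, so the Deptor value of 5445 on Ahr-KO replicate 1 was not examined.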

How the results depend on the processing

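Under 11 alternatives that kept all arrays, 82 of 85 member differences kept their sign. Other sets of rows, other variance priors and the unmoderated model leave each difference as it was, so no sign could change there. No member passed an adjusted p under 0.05 under any of the 18 settings. Tsc2, Rheb and Ddit4 were lower in Ahr-KO under all 18, which include those that could not change the sign. The differences that changed sign with all arrays kept were Akt1 with array weights (0.28), and Rictor (0.45) and Tsc1 (0.49) with the replicate number as a block. Only WT replicate 4 carries the number 4, so the block takes it out of the comparison and gives the same differences as leaving it out. Deviations of same-numbered arrays correlated at 0.02, -0.06 and 0.01, so the numbers did not pair the arrays; with the block, 1120 probe sets had an unadjusted p under 0.05, against 1067 without it.

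Leaving out single arrays gave -1.55 to 0.073 for Rptor, -1.61 to 0.45 for Rictor, -1.31 to 2.48 for Mlst8, -0.84 to 0.49 for Tsc1 and -0.97 to 0.46 for Akt1. Members higher in Ahr-KO numbered 1 to 3 in these fits, 2 with array weights, 3 with the replicate block, and 0 of 5 when only probe sets above the mark on at least 3 arrays were fitted. Members at an unadjusted p under 0.05 numbered 0 to 1. Over all probe sets that count was 1781 with every row of the table and 495 with the filter, where more or fewer probe sets were tested. Members above the mark on all arrays numbered 3, or 1 with the 99th percentile. Values near the mark limit what Rictor, Tsc1 and Mlst8, each above it on 2 arrays, can show.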
